A study of Mus musculus with 90 samples.

Results

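The comparison set motor cortex (MC) against somatosensory cortex (SS) within the same mouse. Its members were the 36 areas of interest (AOIs), 18 in MC and 18 in SS, whose p16 label was present in both cortical areas of that mouse. The series held 90 AOIs in 5 subregions and 38 of them were cortical, so 2 cortical AOIs had no partner with the same label and were left out. Values were averaged over the matched p16 labels, which gave 1 MC value and 1 SS value for each of 10 mice.

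The tissue was mouse brain, fixed in formalin, embedded in paraffin and profiled with GeoMx Digital Spatial Profiling, in which probes bound to RNA are released by light from a chosen area and counted by sequencing. The probe set covered the mouse whole transcriptome. Of the 10 mice, 6 had been exposed to chronic social stress (CSS) and 4 were unexposed controls (ctrl), and both groups contributed MC and SS. Each AOI carried a p16 high or p16 low label, p16 being a cell cycle inhibitor encoded by Cdkn2a. CSS mouse 1163 had only its p16 low AOIs matched and CSS mouse 1169 only its p16 high AOIs, and the other 8 mice contributed both labels. The sources used here do not give genotype, strain, sex, age, the length of the stress, the cortical layers inside an AOI or the way the p16 label was assigned. An AOI is a small region that can hold several cell types, so fewer cells of a type and less RNA per cell cannot be told apart.

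Motor and somatosensory cortex share the same layered plan and the same classes of neuron, and differ mainly in how much room each layer takes. Somatosensory cortex is known for a thick layer 4 that receives thalamic input, whereas motor cortex is known for a thin layer 4 and a prominent layer 5 with large neurons that project out of the telencephalon. Immediate early genes are transcribed within minutes of neuronal activity, and their level in cortex depends on recent sensory and motor experience.

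Few differences between MC and SS passed the test. Of 19962 genes, 1 was called, Junb, which was lower in MC, and it made up 0.00501% of the genes tested (limma with mouse as block, Benjamini-Hochberg adjusted p under 0.05). At an unadjusted p under 0.05, 827 genes (4.14%) were higher in MC and 268 (1.34%) were lower. The log2 difference had the same sign in all 10 mice for 45 genes higher in MC (0.225%) and 16 genes lower (0.0802%). No gene had a mean difference above 1 on the log2 scale, and the median over all genes was 0.03, with 60.0% of genes above 0. The plot of all genes by signal shows Junb at the lower edge, with the other leading genes at moderate to high signal.

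**Figure D1:**
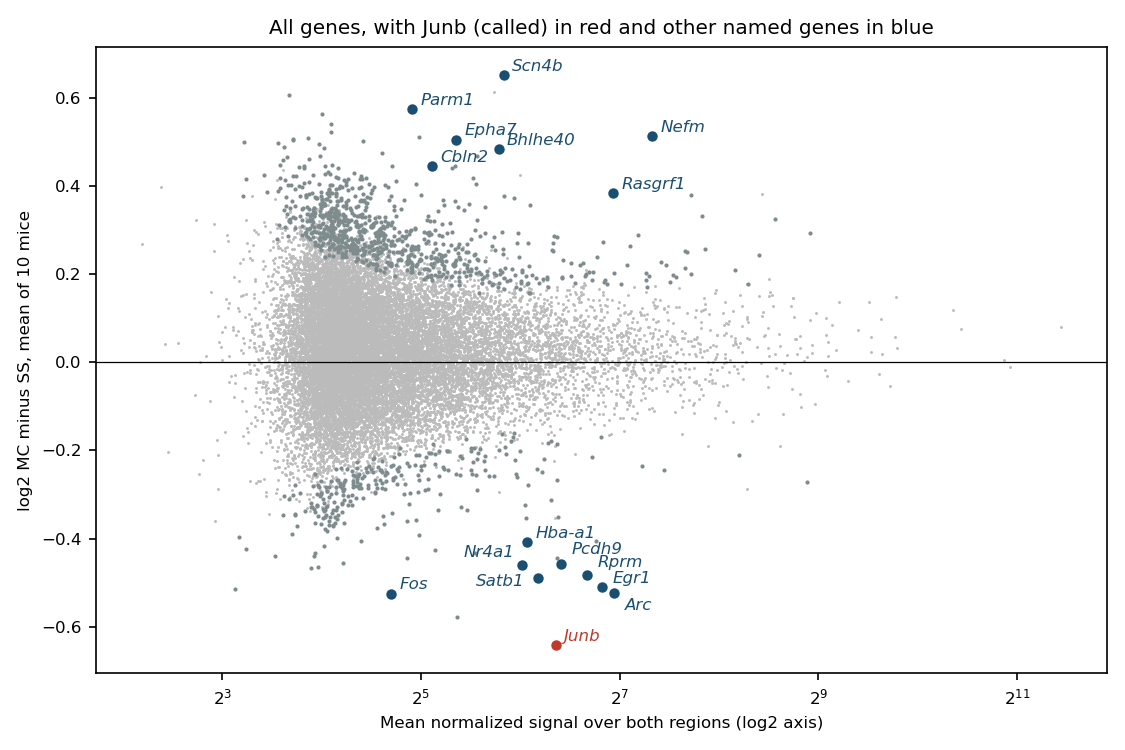
Each point is 1 gene, with its mean normalized signal over MC and SS on the x axis (log2 axis) and the mean log2 difference, MC minus SS, of 10 mice on the y axis. Darker grey points have an unadjusted p under 0.05, Junb (red) was the single gene called, and the other named genes (blue) did not pass; no point lies beyond 1 or -1.

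Depth and background limited what could be seen. Counts recovered from the signal ran from 184469 to 2098984 per AOI. The mouse's total count was higher in MC than in SS in 9 of 10 mice, by a mean of 0.26 ± 0.37 on the log2 scale (SD, n = 10; exact 2-sided sign-flip p = 0.0117). The largest gap was in ctrl mouse 1151, at 1.25, whose SS total of 239799 (geometric mean of its AOIs) was the lowest of all. The ratio of the median gene to the negative control probe ran from 1.22 to 1.49 in MC and from 1.22 to 1.70 in SS (mean log2 difference -0.05 ± 0.08, n = 10; exact 2-sided sign-flip p = 0.105). In all, 25.3% of gene values did not exceed the negative probe, and 4957 genes had a mean signal at least 2 times the probe. The 95% interval of a gene's log2 difference had a median half-width of 0.24, 0.19 for genes above the 75th percentile of signal and 0.28 for as many genes of the lowest signal. Among 10 pan-glutamatergic markers, 8 stood above 2 times the negative probe. Their summed signal ran from 2028 to 4304 in MC and from 2098 to 3857 in SS. Values of other subregions were not set beside these markers, so the markers do not test whether an AOI was cortical. Summed signal of 11 choroid plexus markers ran from 204 to 292 in MC and from 201 to 299 in SS, and 9 of those 11 stood at or under 2 times the probe.

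Along the main component of variation, the mice differed from each other more than the areas did. In a principal component analysis of the cortical AOIs, component 1 held 38.4% of the variance, of which 86.6% lay between mice and 1.05% between MC and SS. Component 5, with 3.32% of the variance, had the largest share between MC and SS among the first 6, at 19.2%. In the 8 mice with all 4 AOIs, the root mean square log2 distance between MC and SS over the same genes was 0.36 ± 0.10 (SD). The distance between the AOIs of both labels within 1 area was 0.35 ± 0.09, and the areas lay farther apart than the labels in 4 of 8 mice (exact 2-sided sign-flip p = 0.398).

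Immediate early genes led the genes that were lower in MC. Junb encodes a subunit of the AP-1 transcription factor and lies at chr8:84976909-84978748 (GRCm38.p6). Its signal per mouse ran from 37.1 to 93.1 in MC, with a median of 60.4, and from 70.5 to 150 in SS, with a median of 90.7. The 2 areas overlapped across mice, yet MC was the lower area in each of the 10 mice. The fall was 0.64 on the log2(signal + 1) scale (log2 difference -0.64, SE 0.10, 0.64-fold; limma adjusted p = 0.0203), and single mice ran from -1.43 to -0.18. The call was lost without ctrl mouse 1151 (log2 -0.55, adjusted p = 0.0985), and likewise without CSS mouse 1157 (0.0538), 1162 (0.0647), 1163 (0.134) or 1170 (0.0544), in the same limma fit.

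Egr1, Nr4a1 and Arc did not pass the same test. Egr1, a zinc finger transcription factor, had a signal of 52.2 to 150 in MC (median 88.9) and 91.2 to 190 in SS (median 121). It was lower in MC in 9 of 10 mice (log2 -0.51, SE 0.09; limma adjusted p = 0.0675). Nr4a1, an orphan nuclear receptor at chr15:101253902-101274795, ran from 43.2 to 80.4 in MC (median 48.8) and from 61.0 to 103 in SS (median 71.6). Ctrl mouse 1182 alone had more Nr4a1 in MC, and over all mice the log2 difference was -0.46 (SE 0.10; limma adjusted p = 0.164). Arc encodes a synaptic protein whose mRNA travels to active dendrites. Its signal ran from 78.2 to 157 in MC (median 94.8) and from 106 to 217 in SS (median 136), and it was lower in MC in 9 of 10 mice (log2 -0.52, SE 0.11; limma adjusted p = 0.173). Each of these genes overlapped between areas across mice, and the separation lay within mice, as the plot of signal per mouse shows. Fos, the partner of Jun proteins in AP-1, was added to the named genes after its values were seen: it stood at 1.61 times the negative probe and had a log2 difference of -0.52 (SE 0.13; limma adjusted p = 0.363).

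**Figure D2:**
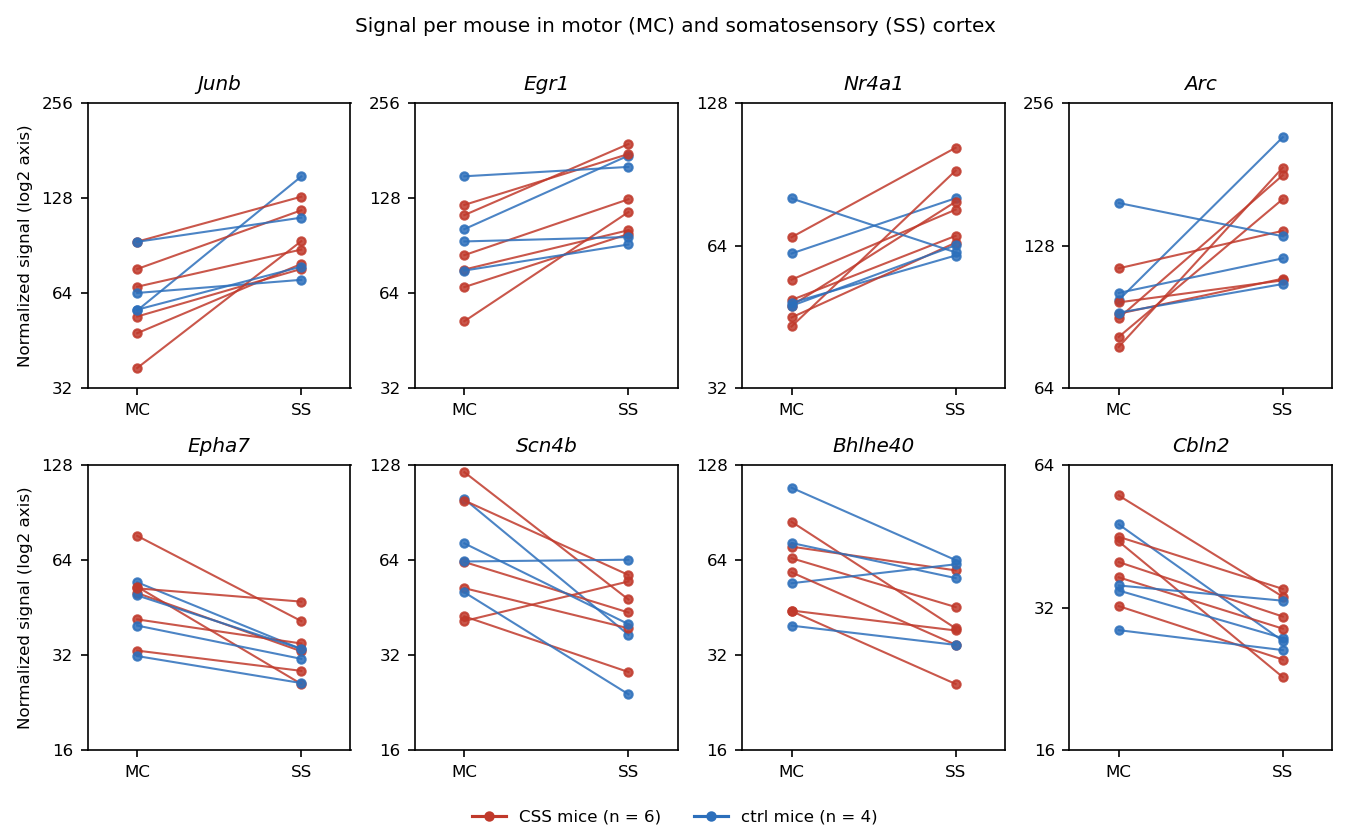
Normalized signal (y axis, log2 axis) of 8 genes in MC and SS of each mouse; a line joins the 2 areas of 1 mouse, red for CSS (6 mice) and blue for ctrl (4 mice). Junb falls from SS to MC in all 10 mice and Egr1, Nr4a1 and Arc in 9, while Epha7 and Cbln2 are higher in MC in all 10 and Scn4b and Bhlhe40 in 9.

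Of the 23 immediate early genes listed, all were measured and 21 were below 0, with a median of -0.18 against 0.03 over all genes. Junb was the 1 member called. At an unadjusted p under 0.05, 10 members (43.5%) were lower in MC, against 1.34% of all genes, and 0 were higher. Averaged over the list, 9 of 10 mice were below 0, from -0.46 in CSS mouse 1169 to 0.09 in ctrl mouse 1182. Over 26 other settings that measured all 23 genes, 17 to 23 members were below 0 and 3 to 12 passed the unadjusted threshold; the lowest number, 3, came from the 4 ctrl mice alone. Homer1, a scaffold of the postsynaptic density with an activity-induced short form, was at -0.24 (SE 0.09; limma adjusted p = 0.891). Jun, Egr2, Egr4, Ier2 and Bdnf, named after their values were seen, were lower in MC in 4 or 5 of 10 mice. The heat map of the list by mouse shows the leading members low in most columns.

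**Figure D3:**
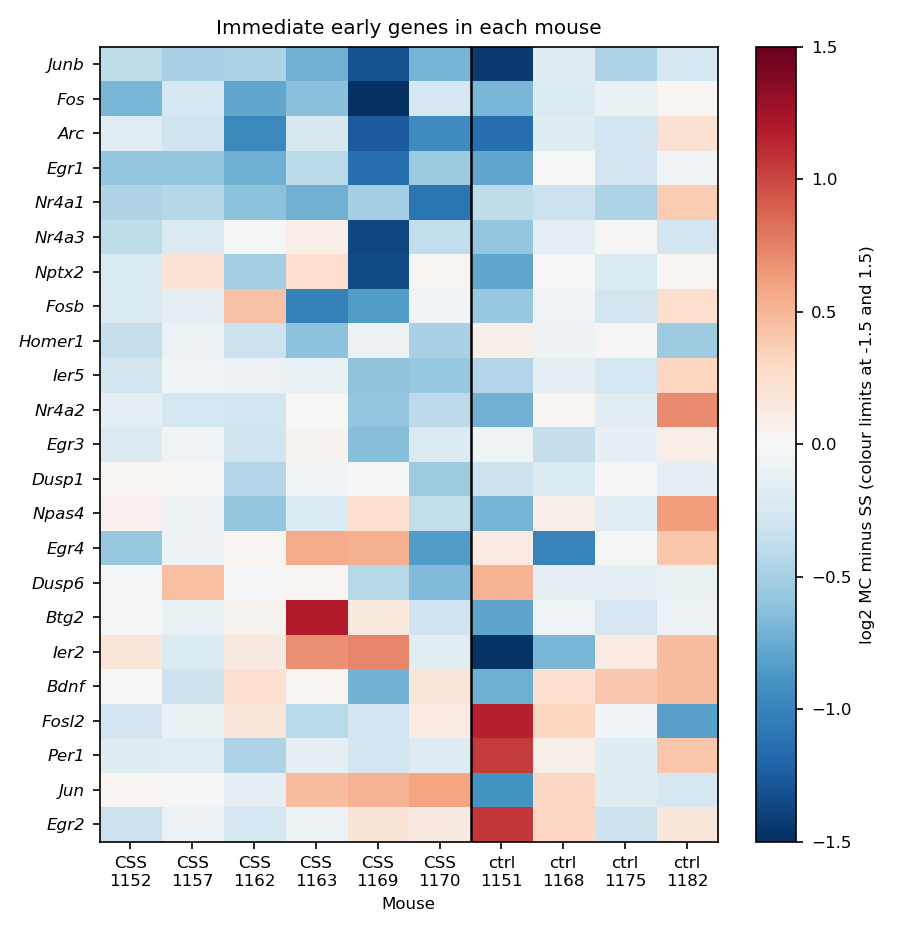
Log2 difference, MC minus SS, of the 23 immediate early genes (rows, ordered by mean) in each mouse (columns; 6 CSS mice left of the line, 4 ctrl mice right). Blue means lower in MC: Junb is blue in all 10 mice, and ctrl mouse 1182 has the fewest blue cells among the leading genes.

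Promoter sequence is shown for Junb, the gene called, and Nr4a1, a gene of the same list, because calcium- and cAMP-driven transcription of such genes is known to act through the CRE, the site bound by CREB. The sequences are RefSeq promoter windows on GRCm38.p6, from 250 bases before to 50 bases after an annotated start. Junb is at chr8:84978699-84978998 on the minus strand and Nr4a1 at chr15:101266596-101266895 on the plus strand, both printed 5′ to 3′ along the gene. Capitals mark the CRE core, TGACG or its reverse complement CGTCA.
Junb: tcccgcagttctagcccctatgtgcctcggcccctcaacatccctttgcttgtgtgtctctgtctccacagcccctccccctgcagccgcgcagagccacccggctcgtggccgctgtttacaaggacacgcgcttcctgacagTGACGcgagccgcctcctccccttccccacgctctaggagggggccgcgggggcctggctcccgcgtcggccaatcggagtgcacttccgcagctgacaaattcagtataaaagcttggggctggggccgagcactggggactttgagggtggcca
Nr4a1: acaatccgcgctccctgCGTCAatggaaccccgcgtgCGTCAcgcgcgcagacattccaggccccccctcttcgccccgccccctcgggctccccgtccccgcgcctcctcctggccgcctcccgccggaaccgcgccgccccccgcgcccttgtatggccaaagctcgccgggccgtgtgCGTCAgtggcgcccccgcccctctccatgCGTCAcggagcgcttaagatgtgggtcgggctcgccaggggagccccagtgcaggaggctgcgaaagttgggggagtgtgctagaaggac
The core occurred 1 time in the Junb window and 4 times in the Nr4a1 window, on either strand. It was present for 14 of the 18 listed immediate early genes with an entry in the promoter table, against 23.1% of all 27025 genes there. The full site TGACGTCA, which contains the core, was present for 2 of the 18 genes and for 2.03% of all genes, and in neither window shown. Other motifs were also scanned. The CArG box motif was present for 1 of the 18 genes and 1.81% of all genes, and the EGR site motif for 3 of the 18 and 3.31%. The Fos window, not shown, held the CRE core 2 times. All of these are matches of letters and not measured binding.

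The values of CSS and ctrl mice overlapped in these genes, and no group difference passed the adjusted test. The log2 difference of Junb was -0.68 ± 0.34 in the 6 CSS mice and -0.59 ± 0.58 in the 4 ctrl mice (SD). For Egr1 it was -0.67 ± 0.25 in CSS and -0.28 ± 0.36 in ctrl, and for Nr4a1 -0.64 ± 0.25 and -0.20 ± 0.39. The difference between groups was -0.09 (SE 0.21) for Junb, -0.39 (SE 0.18) for Egr1 and -0.44 (SE 0.18) for Nr4a1. Their unadjusted limma p-values were 0.665, 0.0379 and 0.0242. Egr1 and Nr4a1 were each lower in MC in all 6 CSS mice and in 3 of 4 ctrl mice. With limma over all genes, 0 of 19962 (0%) had a group difference in MC minus SS, 699 had an unadjusted p under 0.05, and the smallest adjusted p was 0.997. Hba-a1, a haemoglobin chain of red blood cells, had the smallest unadjusted p, with 0.23 ± 1.08 in CSS mice and -1.36 ± 0.60 in ctrl mice. Thoc2, of the mRNA export complex, and Hbb-b1, the other haemoglobin chain, came next, with group differences of -0.94 (SE 0.22) and 1.33 (SE 0.32). Quantile normalization also gave 0 genes, and without CSS mouse 1163 Hba-a1 alone was called (limma adjusted p = 0.0185).

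The p16 label made no called difference to the contrast between areas. Junb was at -0.58 in p16 high AOIs and -0.62 in p16 low AOIs. In the 8 mice with both labels, 0 of 19962 genes (0%) differed in limma, 794 had an unadjusted p under 0.05, and the smallest adjusted p was 0.989. The smallest unadjusted p-values were those of Rgs19 (difference -0.94, SE 0.20), Vmn1r113 (0.78, SE 0.20) and Psmg3 (-0.88, SE 0.23). Quantile normalization also gave 0 genes, and without ctrl mouse 1168 Ttr alone was called (limma adjusted p = 0.0144), a thyroid hormone carrier made by the choroid plexus. Cdkn2a itself ran from 18.01 to 28.06 in MC (median 23.2) and from 23.2 to 45.6 in SS (median 25.3), at 1.60 times the negative probe. Its log2 difference was -0.21 (SE 0.11; limma adjusted p = 0.894). Cdkn1a, which encodes the p21 inhibitor, was at -0.26 (SE 0.10; limma adjusted p = 0.891), with MC at 19.1 to 36.0 and SS at 29.3 to 42.8. Of 23 measured genes of cell cycle arrest and senescence, 0 were called, 10 were above 0 and 13 below, with a median of -0.01. Igfbp5, a secreted binder of insulin-like growth factors, was at -0.29 (SE 0.12), and Mdm2, the p53 ligase, at 0.22 (SE 0.09).

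Genes of large projection neurons pointed the other way. Scn4b, an auxiliary subunit of voltage-gated sodium channels, ran from 41.1 to 121 in MC (median 63.2) and from 24.1 to 64.2 in SS (median 41.9). It was higher in MC in 9 of 10 mice, CSS mouse 1170 being the exception (log2 0.65, SE 0.12, 1.57-fold; limma adjusted p = 0.0766). Nefm, the medium neurofilament chain that fills large axons, was at 0.51 (SE 0.14; adjusted p = 0.549 by limma), and the heavy chain Nefh at 0.42 (SE 0.12). The light chain Nefl was at 0.26 (SE 0.09). Of 12 measured genes in the list of neurofilaments and large projection neurons, 11 were above 0 and 0 were called. The median was 0.16, and 5 members (41.7%) had an unadjusted p under 0.05 in the upward direction, against 4.14% of all genes. Over 26 settings, 9 to 11 members were above 0 and 3 to 8 passed the unadjusted threshold. The list mean was above 0 in 8 of 10 mice. It was highest in mice 1151 (0.59) and 1163 (0.54) and below 0 in mice 1168 (-0.12) and 1169 (-0.03). Nefm was also above 0 in 8 of 10 mice, from -0.62 in mouse 1170 to 1.49 in mouse 1163.

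The list of layer 5 extratelencephalic neurons, which send axons to brainstem and spinal cord, had all 12 measured members above 0, with a median of 0.20. None was called. In the upward direction, 5 of the 12 (41.7%) had an unadjusted p under 0.05 in limma, against 4.14% of all genes. Parm1 led, at 26.2 to 60.0 in MC (median 32.4) and 14.1 to 42.1 in SS (median 22.02), with a log2 difference of 0.57 (SE 0.14; limma adjusted p = 0.407). Pou3f1, a POU transcription factor of these neurons, was at 0.38 (SE 0.10), Npnt at 0.31 (SE 0.11) and Bcl11b, which encodes the transcription factor CTIP2, at 0.24 (SE 0.09). Only 3 of the 12 genes stood above 2 times the negative probe. The list mean was above 0 in 9 of 10 mice, and between 9 and 12 members were above 0 over 26 settings. Over the same settings 1 to 6 members passed the unadjusted threshold, the lowest number, 1, in p16 low AOIs alone, and 3 passed without CSS mouse 1162.

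Scn4b is also a striatal gene. Of 13 listed striatal neuron markers 10 were above 0, with a median of 0.14, and none was called. Scn4b and 4 others, 38.5% of the list, had an unadjusted p under 0.05 in the upward direction in limma, against 4.14% of all genes, and the list mean was above 0 in 9 of 10 mice. The 4 others, named after their values were seen except for Tac1, were the neuropeptide gene Tac1, Rasd2, Gng7 and Drd2. Tac1 was at 0.33 (SE 0.13) and Rasd2, which encodes a small GTPase, at 0.28 (SE 0.10), both at 2.08 times the negative probe. Gng7, a G protein subunit, was at 0.26 (SE 0.12) and 1.90 times the probe, and Drd2, a dopamine receptor, was at 0.27 (SE 0.13) and 1.23 times the probe. Over 26 settings 7 to 12 of the 13 were above 0 and 1 to 6 passed the unadjusted threshold. Summed over the 13 markers, the signal ran from 397 to 543 in MC and from 375 to 455 in SS, and its part in the Scn4b difference was not tested.

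**Figure D4:**
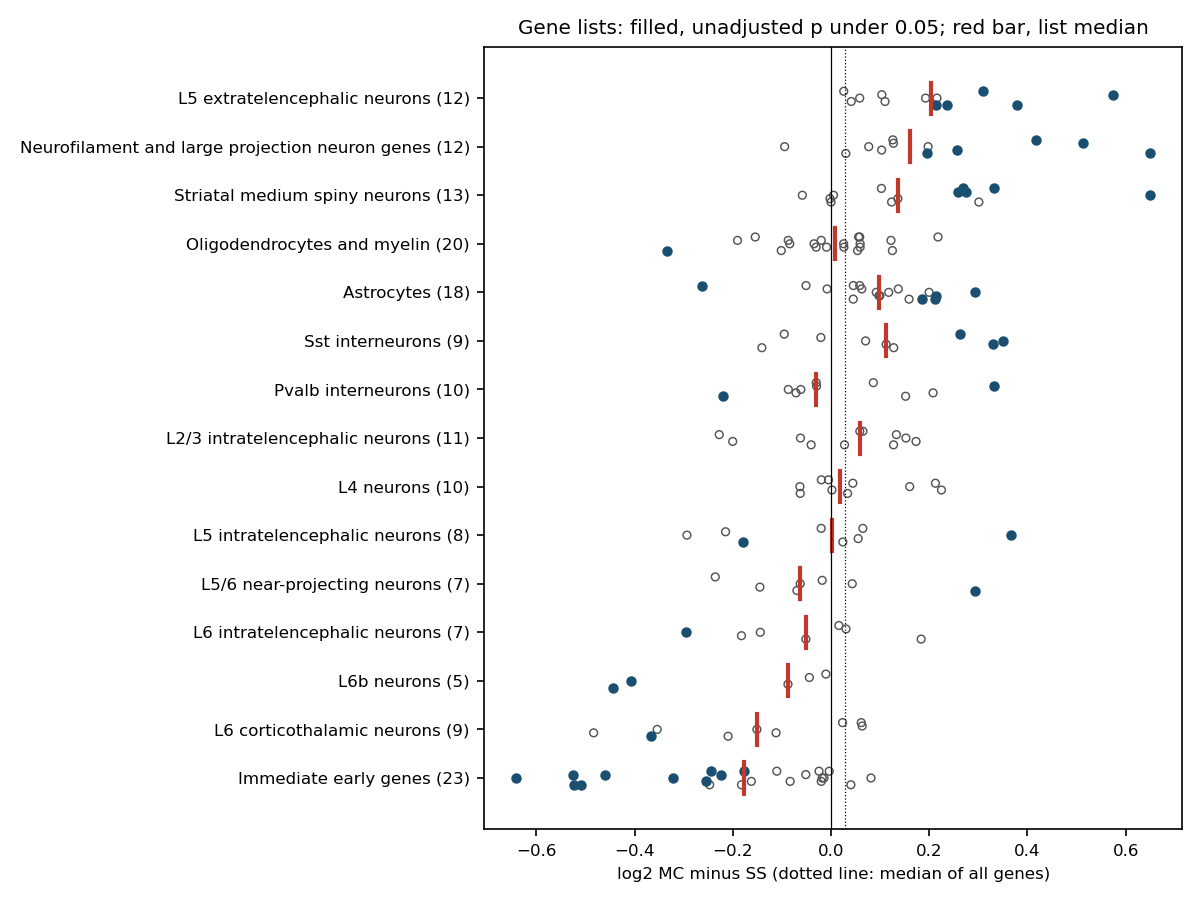
Log2 difference, MC minus SS, of each measured member of 15 gene lists (number of members in brackets); filled points have an unadjusted p under 0.05, red bars are list medians and the dotted line is the median of all genes, 0.03. Layer 5 extratelencephalic members all lie above 0, 21 of 23 immediate early genes lie below, and the layer 4 members lie on both sides.

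Layer 4 genes, which mark the layer that is thick in somatosensory cortex, did not separate the areas. None of the 10 measured members was called or had an unadjusted p under 0.05, and none stood above 2 times the negative probe. Rorb, a nuclear receptor that shapes layer 4, ran from 14.7 to 37.8 in MC (median 20.0) and from 12.1 to 24.0 in SS (median 19.4). Its log2 difference was 0.21 (SE 0.14, 95% interval -0.08 to 0.51). Scnn1a, a sodium channel subunit, was at 0.16 (SE 0.13), the netrin receptor Unc5d at 0.22 (SE 0.15) and Rspo1, a secreted Wnt agonist, at -0.06 (SE 0.13). At 1.13 to 1.27 times the negative probe, these 4 genes were near background, and a layer 4 difference in either direction was poorly measurable.

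Layer 6 corticothalamic genes varied widely from mouse to mouse. Rprm, a marker of layer 6 corticothalamic neurons, ran from 15.9 to 196 in MC (median 80.5) and from 60.2 to 166 in SS (median 99.91). It was more than 2 log2 units lower in MC in mice 1151 (-2.13), 1163 (-2.27) and 1169 (-2.38), and higher in mouse 1168 (1.61). Its mean difference was -0.48 (SE 0.25; limma adjusted p = 0.894). Hs3st4, a heparan sulfate sulfotransferase, was at -0.35 (SE 0.18) and Foxp2, a forkhead factor of the same neurons, at -0.37 (SE 0.15). The mean of the 9 listed genes ran from -1.20 to 0.68 across mice, a wider range than for any other list plotted. Layer 6b genes, from the deepest layer, had 5 of 5 members below 0, but none stood above 2 times the negative probe. Leading members were Ccn2, a matricellular protein (-0.44, SE 0.14), and the complexin Cplx3 (-0.41, SE 0.16). Both were lower in MC in 8 mice and higher in 2. Their lowest values were in CSS mice 1162 (Ccn2 -1.3, Cplx3 -1.1) and 1169 (Ccn2 -1.4, Cplx3 -1.8). Moxd1 was at -0.01 and Trh at -0.04. Layer 2/3 markers Rasgrf2 and Mdga1 were at -0.20 (SE 0.11) and -0.23 (SE 0.14), and 7 of 11 in that list were above 0.

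The layer 6 corticothalamic mean was set against the leading differences across mice. These relations were not planned, and Junb, Egr1, Satb1, Epha7 and Scn4b were named for extreme values in the same mice. The permutation p-values do not allow for that choice. Across 10 mice, the Junb difference and the layer 6 corticothalamic mean correlated at Pearson r = 0.84 (permutation p = 0.00244, adjusted over 8 relations 0.0195) and Spearman rho = 0.71 (permutation p = 0.0264, adjusted 0.211). Ctrl mouse 1151 had the lowest Junb difference (-1.43), with a layer 6 corticothalamic mean of -0.63, and it was not left out. Without mice 1168 and 1169, the farthest from the median, r was 0.72. For Egr1 r was 0.68 (permutation p = 0.0311, adjusted 0.124) and rho 0.33 (p = 0.347 by permutation), and r was 0.05 without those mice, so that relation rests on them. For the immediate early list r was 0.48 (permutation p = 0.162, adjusted 0.432) and rho 0.20 (permutation p = 0.582), with r at 0.03 without those mice. The other 5 relations, with Satb1, Epha7, Scn4b and the means of both projection neuron lists, had adjusted permutation p-values of 0.495 to 0.944 for r. Without mice 1168 and 1169, r was -0.83 for the neurofilament and large projection neuron list, -0.62 for Scn4b, -0.55 for Epha7, 0.54 for Satb1 and -0.27 for the layer 5 extratelencephalic list, against -0.35, -0.40, -0.03, 0.11 and -0.27 with all 10 mice. A fit with the corticothalamic mean as a covariate was added after its values were seen. In that fit Junb was at -0.53 (SE 0.08, limma adjusted p = 0.0141) and was again the 1 gene called. With the ratio of the median gene to the negative probe as the covariate instead, Junb was at -0.50 (SE 0.11) and was not called. The corticothalamic covariate came from the same AOIs as Junb and was chosen with its values known. That fit therefore only describes these mice, and the part of layer 6 content in the Junb difference was not tested.

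Transcription factors and adhesion genes gave some of the largest single differences. Satb1, a chromatin organizer, ran from 47.8 to 92.9 in MC (median 56.3) and from 48.4 to 110 in SS (median 95.03), and was lower in MC in 9 of 10 mice (log2 -0.49, SE 0.10; limma adjusted p = 0.115). Pcdh9, a protocadherin, was at -0.46 (SE 0.10; limma adjusted p = 0.168). Epha7, a receptor for ephrin-A guidance cues, ran from 31.8 to 76.4 in MC (median 49.9) and from 26.0 to 47.3 in SS (median 33.2). MC was the higher area for Epha7 in all 10 mice, with ranges that overlapped across mice (log2 0.50, SE 0.09, 1.42-fold; limma adjusted p = 0.0766). Its relative Epha6 was at 0.40 (SE 0.13) and the ligand Efna5 at -0.36 (SE 0.12). Lypd1, a modulator of nicotinic receptors, was at 0.29 (SE 0.09) and the semaphorin Sema3e at -0.29 (SE 0.10). Of the 41 areal adhesion and guidance genes, 25 were above 0 and 16 below, with a median of 0.05. At an unadjusted p under 0.05, 6 (14.6%) were higher, against 4.14% of all genes, and 3 (7.32%) were lower, against 1.34%.

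Cbln2, a secreted synapse organizer, was higher in MC in all 10 mice, at 28.7 to 55.2 (median 38.5) against 22.8 to 35.0 in SS (median 28.2; log2 0.44, SE 0.10; limma adjusted p = 0.168). Bhlhe40, a repressor of the clock and activity network, was higher in 9 (log2 0.48, SE 0.10; limma adjusted p = 0.115), and Rasgrf1, a calcium-dependent Ras activator, in all 10 (log2 0.38, SE 0.09; limma adjusted p = 0.292). Among 30 areal transcription factors, 14 were above 0 and 16 below, with a median of 0.00. At an unadjusted p under 0.05, 1 (3.33%) was higher, against 4.14% of all genes, and 2 (6.67%) were lower, against 1.34%. Named members of this list were Id2 (-0.25, SE 0.09), Bcl11a (-0.19, SE 0.09) and Bcl11b, given above. In the layer 5 intratelencephalic list, Sulf2, an extracellular sulfatase, was at 0.37 (SE 0.10) and the receptor phosphatase Ptprt at -0.18 (SE 0.08).

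Interneuron and glial lists held no called gene. Sst, the somatostatin peptide, ran from 133 to 400 in MC (median 238) and from 145 to 322 in SS (median 180; log2 0.33, SE 0.12; limma adjusted p = 0.891). The peptides Npy and Pdyn were at 0.35 (SE 0.17) and 0.26 (SE 0.11), and 6 of 9 genes in the Sst interneuron list were above 0. These 3 (33.3% of that list) had an unadjusted p under 0.05 in the upward direction, against 4.14% of all genes. Cnr1, the cannabinoid receptor of a class of interneurons, was at -0.35 (SE 0.11), Tac1 at 0.33 (SE 0.13) and the potassium channel Kcnc2 at -0.22 (SE 0.10). Of 18 astrocyte genes, 15 were above 0 with a median of 0.10. At an unadjusted p under 0.05, 4 (22.2%) were higher, against 4.14% of all genes, and 1 (5.56%) was lower, against 1.34%. Mlc1 was at 0.29 (SE 0.11) and Aldoc at 0.21 (SE 0.09), and Gfap, the intermediate filament of reactive astrocytes, was at -0.26 (SE 0.13). The 20 myelin genes split 10 and 10, with Apod, a lipid carrier, at -0.33 (SE 0.12). Ptgds, a meningeal and choroid plexus transcript, was at 0.27 (SE 0.10).

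Genes of oxidative phosphorylation and of the ribosome had medians close to that of all genes, 0.03. The 76 genes of oxidative phosphorylation had a median of 0.05 with 60 above 0, and the 74 ribosomal protein genes a median of -0.01 with 33 above 0. Of all genes, 60.0% were above 0. Of the 25 genes of the postsynaptic density, 22 were above 0 with a median of 0.09, among them Cnksr2, a scaffold of that structure (0.19, SE 0.08; higher in MC in all 10 mice). Cplx1, a presynaptic complexin, was at 0.29 (SE 0.12).

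The sign of the 16 plotted differences held under every setting tried, whereas their size and calls moved. Most of the 16 were named for extreme values in these same mice, so their held sign is no separate support. Of all 57 named genes, 49 kept their sign. Over 29 other settings, Junb stayed negative, from -0.87 to -0.50, and was called in 16. Egr1 ran from -0.67 to -0.28 and Scn4b from 0.55 to 1.14, called in 11 and 7. Nr4a1 ran from -0.67 to -0.20, Epha7 from 0.37 to 0.90, Cbln2 from 0.35 to 0.91 and Rasgrf1 from 0.13 to 0.63. With edgeR on the recovered counts 12 genes were called and with quantile normalization 12, of which 8 were shared. Those 8 were Junb, Egr1, Nr4a1, Arc, Satb1, Scn4b, Epha7 and Cbln2. DESeq2 called 7 genes, without Arc and Cbln2 (DESeq2 adjusted p = 0.0951 for each). Junb was the 1 gene called by the main fit and by edgeR, quantile normalization and DESeq2. The plot of estimates under each setting shows that the 16 genes drawn kept their sign.

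**Figure D5:**
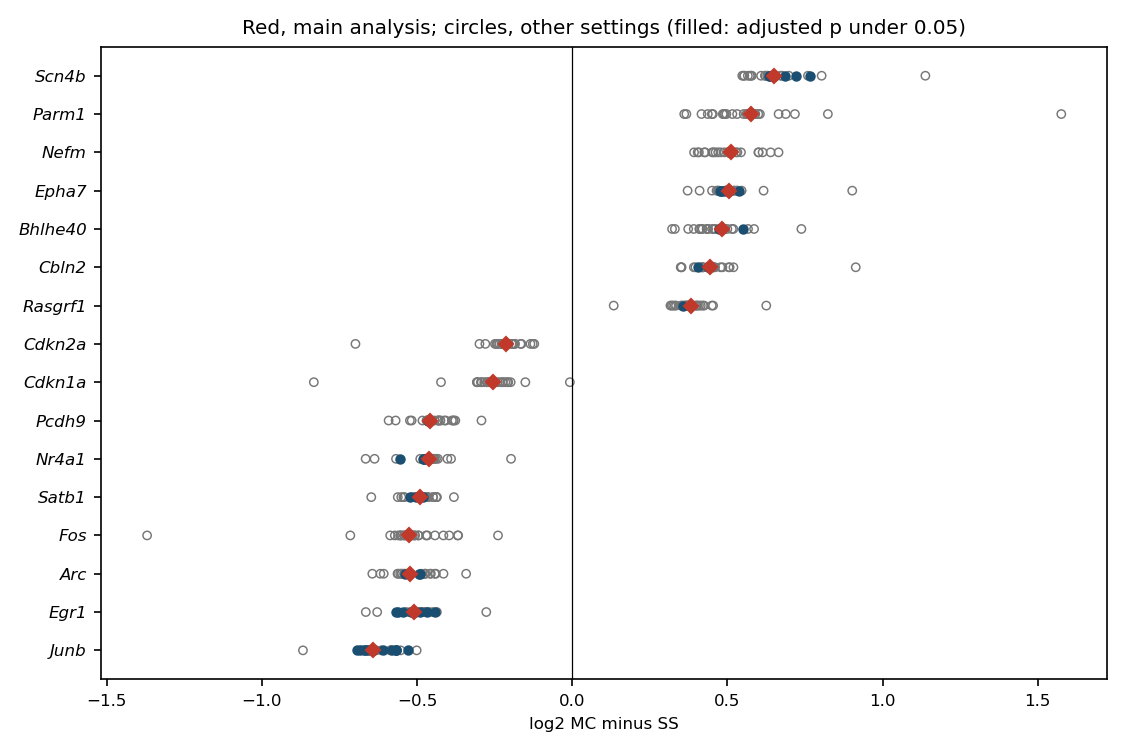
Log2 difference, MC minus SS, of 16 genes under the main analysis (red diamonds) and under up to 29 other settings (circles; filled where the adjusted p was under 0.05). No point crosses 0; Junb runs from -0.87 to -0.50 and Scn4b from 0.55 to 1.14.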

How the data were processed

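GeoMx probe signal was measured in 90 AOIs of 10 mice. The deposited signal had been scaled by the authors to a common median in every AOI, which the table's columns share. Per the submitters' processing notes, mm10 was used, and the tools behind the reads are not stated in the sources used here. Values of an AOI were multiples of 1 step, so dividing by that step returned counts (99.98% or more within 0.01 of a whole number), which were rounded. Intervals and sign-flip tests cover these mice and counting error only. Of the gene names, 19846 of 19962 (99.4%) matched the RefSeq table of GRCm38.p6.

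Values were log2(signal + 1) with the background left in, so fold changes are understated, most of all for genes of low signal. With the negative probe subtracted, the log2 difference of Junb was -0.87, against -0.64 in the main fit. AOIs were averaged per mouse and area over the p16 labels present in both, and the paired fit used mouse as a fixed block in limma 3.58.1 (R 4.3.3; eBayes with trend, 2-sided). A gene was called at a Benjamini-Hochberg adjusted p under 0.05 over all genes. Group and label differences were tested on the mouse's differences. Library values were compared with exact sign flips. Pairing rests on the labels' mouse id, as both areas came from 1 animal; deviations of MC and SS correlated at a median of 0.21 over 10 mice (7 above 0.1). AOIs of 1 mouse were not treated as replicates.

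The members and lists were chosen with earlier results of these data known. By rule, Cdkn2a and Cdkn1a, the called genes, the 5 most extreme moderated t values in each direction, and up to 4 members of a list with the smallest p were named, and the 3 smallest p-values of the group and label differences. Other settings were another pseudocount, signal filters, quantile and 75th percentile scaling, subtraction of the negative probe, edgeR 4.0.16, DESeq2 1.42.0, other blocks, AOI subsets, covariates and leaving out each mouse. The paired fit was also run on simulated counts in which AOIs differed in depth but mice did not differ. That run does not test the mouse block.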

Additional observations from a re-analysis of the deposited data

Results flagged for a closer look

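In 60 sets of 10 mouse values (57 genes and 3 library measures), 9 had 1 mouse far from the others, where chance alone gives about 1 in 20. Ctrl mouse 1151, whose SS AOIs were shallow, stood apart in 5 of the 9. Its total count was 1.25 log2 units higher in MC, against -0.16 to 0.31 in the other mice. In that mouse Rorb was at 1.5 (others -0.63 to 0.45), Sema3e at 0.41 (others -0.63 to -0.14), Rspo1 at -1.03 (others -0.26 to 0.56) and Cdkn2a at -0.98 (others -0.42 to 0.12), all as log2 MC minus SS. CSS mouse 1169 was lowest for Fos at -1.68 (others -0.78 to 0.03) and highest for Mdm2 at 0.80 (others -0.05 to 0.30). Ctrl mouse 1182 was highest for Nr4a1 at 0.38 (others -1.10 to -0.33), and CSS mouse 1170 was highest for Ptprt at 0.25 (others -0.37 to -0.07).

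Scnn1a was higher in MC in all 6 CSS mice (0.40 ± 0.35, SD) and lower in all 4 ctrl mice (-0.21 ± 0.12), a group difference of 0.61 (SE 0.23) that did not pass the limma test over all genes. Its signal was 1.21 times the negative probe.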

How the results depend on the processing

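For MC against SS, the count of called genes was 1 and moved with most settings: 2 with log2(signal + 10), 3 among genes above the median signal, 5 above 2 times the negative probe, 5 above the 75th percentile of signal, 12 with quantile normalization, 2 with 75th percentile scaling, 12 with edgeR and 7 with DESeq2. It was 0 with the negative probe subtracted, with all AOIs unmatched, with p16 high or p16 low AOIs alone, with CSS mice alone and with signal over background as a covariate, and 2 in ctrl mice alone (Hba-a1 and Hbb-b1). Without the replicate block that pairs areas by mouse 0 genes were called. With mouse as a random block and all AOIs, 2 changes at once, 5 were called. Leaving out each mouse gave 0 to 5 genes, with 4 without ctrl mouse 1168, 3 without 1182, 5 without CSS mouse 1169 and 0 without 1151, 1157, 1162 or 1163. The count was 1 without the 2 AOIs under 300000 counts. Group differences gave 0 to 1 gene and label differences 0 to 1 gene when a mouse was left out. The cause of these shifts was not tested. The log2 ratio of total count ran from 0.15 to 0.31, of the median to the negative probe from -0.06 to -0.03, and of the 75th percentile from -0.000752 (without ctrl mouse 1151) to 0.018. Of 57 named genes, 49 kept their sign under every setting. The sign turned in ctrl mice alone for Scnn1a (-0.21), Rasgrf2 (0.12), Mdga1 (0.24), Bcl11a (0.0072) and Tac1 (-0.10), in CSS mice alone for Hba-a1 (0.23) and Rspo1 (0.061), with the background covariate for Rorb (-0.031) and Rspo1 (0.048), and for Rspo1 in p16 low AOIs (0.063) and without ctrl mouse 1151 (0.045; -0.132 to 0.045 when each mouse was left out). Genes near the negative probe were limited by background.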
